A study of Mus musculus with 6 samples.

Results

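Axon guidance ligands and receptors were examined in RNA of mouse lumbar spinal cord from Egr3-deficient and wild-type mice. The members were the probe sets of both array types that carry 1 platform gene symbol of the semaphorin (Sema3 to Sema7), plexin, Eph receptor, ephrin, Slit, Robo, netrin or Unc5 and Dcc families. They were picked by symbol alone, with no measured value, and came to 71 of the 18193 genes with a symbol of their own, read by 154 of 45137 probe sets, 98 (58 genes) on array type A and 56 (41 genes) on array type B, with 28 genes on both. The symbol pattern also took in Unc50, a membrane protein gene outside these receptor families, Plxna4os1, an antisense transcript at a plexin gene, and Unc5cl, an Unc5-like gene without a guidance role known here.

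The study hybridised 3 RNA pools to each array type. Pools 1 and 2 (RNA 450 and RNA 500 in the titles) were Egr3-deficient and the remaining pool (RNA 499) was wild type. Each pool combined 3 cords, segments L3 to L5, at postnatal day 27. An acclimatization remark stands on the labels of pool 2 and wild type but not of pool 1, so only pool 2 was compared with wild type under the same remark. The sources used here do not give the Egr3 allele, the strain or the sex. Egr3 is a zinc finger transcription factor that acts downstream of neurotrophin and neuregulin signals, and mice lacking it lose their muscle spindles. The title of the series puts fusimotor neurons, the motor neurons that supply those spindles, at its centre.

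Guidance cues steer growing axons and, in the postnatal cord, also act on synapses, glia and vessels. Ephrins are membrane-bound ligands of the Eph receptor tyrosine kinases, and signal in both directions between touching cells. Semaphorins act through plexins, class 3 semaphorins with neuropilins as coreceptors. Netrins attract through Dcc and repel through Unc5 receptors, and Slits repel through Robo receptors, as at the ventral midline of the cord.

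Each pool gave 1 intensity per probe set, and the number of arrays limits the precision. Markers of the labelled tissue were present: Hoxc10, a lumbar Hox gene, read 1066 and 1022 against 795 on B (pools 1 and 2 against wild type, the order used throughout), and all 5 neuronal, 5 astrocyte and 5 myelin markers measured on A passed the filter on low values. Astrocyte markers had no common direction, though 2 of 4 passed as lower on B. Aqp4, a water channel, read 356 and 434 against 1239 there (-1.84, limma adjusted p = 0.0115). Its difference on A was -1.74 (limma adjusted p = 0.158). The glutamate transporter gene Slc1a2 read 3513 and 7489 against 7384 on B (-1.18, limma adjusted p = 0.0403). Before normalization only its pool 1 reading was below wild type. On A it read 86.2 and 66.7 against 78.7 (0.05). Slc1a3 differed by -0.098 on A and -0.20 on B. Aldh1l1 was above wild type in both pools on A (0.90). Gfap was above it in both pools on A (0.28), and on B its pools lay on opposite sides (0.55 and -0.023). Egr3 itself was not below wild type in both pools (24.9 and 52.7 against 40.6 on A, 210 and 107 against 75.3 on B), and the sources used here do not place its probe sets in or outside the deletion. The pools are therefore the pools labelled Egr3-deficient throughout, and each direction rests on those labels. Skeletal muscle markers were above wild type in both pools for 9 of 9 genes on A, with a summed intensity of 4031 and 5084 against 130.1. Liver markers were so for 5 of 5 genes, with 371 and 9446 against 106. The dorsal root ganglion markers on A, below the filter, were lower in both pools. Avil read 11.2 and 3.07 against 64.5 and Scn10a 6.71 and 9.39 against 29.4. On B the ganglion marker Pou4f1 had its pools on opposite sides (0.62 and -0.10). Of the nerve root markers, Pmp2 was lower in both pools on B (-0.88) and Egr2 higher in both on A (0.73). Among the RNA quality controls on A, the 3' to 5' ratio was 0.858 and 0.975 against 0.734 for Gapdh, 1.37 and 1.48 against 1.36 for actin, 4.20 and 3.80 against 2.42 for pyruvate carboxylase, and 1.55 and 2.29 against 1.56 for transferrin receptor. The control for 18S rRNA set wild type apart most, at 2.27 and 1.08 against 0.0493 on A and 1.43 and 0.945 against 0.0605 on B. The part of these differences in the results below was not tested.

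No member that could be tested passed the test on either array type. Values were compared as log2(intensity + 16) after quantile normalization, and a probe set was kept for testing where its mean log2 value was at or past the array type's 40th percentile, an intensity near 36.7 on A and 55.9 on B. Kept members numbered 43 of 98 on A and 44 of 56 on B, covering 55 of the 71 genes. A member could pass this filter through 1 high group, so counts over kept members do not stand for all of them. With limma and Benjamini-Hochberg adjustment over all kept probe sets, 0 of 43 members on A and 0 of 44 on B had an adjusted p under 0.05, where 0.0663% of all kept probe sets did on A and 1.63% on B. Higher calls made up 1.02% and lower calls 0.607% of all kept probe sets on B, and on A all were higher. At an unadjusted p under 0.05 there were 7 members on A (16.3% of those kept, beside 20.7% of all kept probe sets) and 9 on B (20.5% beside 14.2%). On A 4 were higher (9.3% beside 7.93%) and 3 lower (6.98% beside 12.7%). On B 5 were higher (11.4% beside 7.4%) and 4 lower (9.09% beside 6.83%). Pool by pool, 5 members on A were at least 2-fold higher in pool 1 (11.6% beside 5.21%) and 2 in pool 2 (4.65% beside 2.45%), and 2 were at least 2-fold lower in pool 1 (4.65% beside 12.1%) and 1 in pool 2 (2.33% beside 5.05%). On B 6 were at least 2-fold higher in pool 1 (13.6% beside 10.5%) and 3 in pool 2 (6.82% beside 5.85%), and 5 were lower by that much in pool 1 (11.4% beside 12.7%) and 1 in pool 2 (2.27% beside 4.85%). In these bulk pools, fewer cells of a type and less RNA per cell cannot be told apart.

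As a group the members lay near the other genes. On A the median log2 difference (Egr3-deficient minus wild type) was 0.28 over kept members and 0.11 over all kept probe sets, while those medians on B were -0.097 and 0.0001. Both pools exceeded wild type for 21 members on A (48.8%, against 47.9% of all) and lay below it for 15 (34.9% against 34.8%). On B 12 were above in both (27.3% against 38.9%) and 18 below (40.9% against 36.6%). Both ratios share the wild-type pool, so a common sign is partly built in. Members' median on A turned to -0.061 with no filter on low values, and that on B was -0.75 when arrays were centred on the 100 probe sets common to both array types, a scaling that put the median over all probe sets at -0.66. Every direction on B below is relative to the quantile scale.

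**Figure D1:**
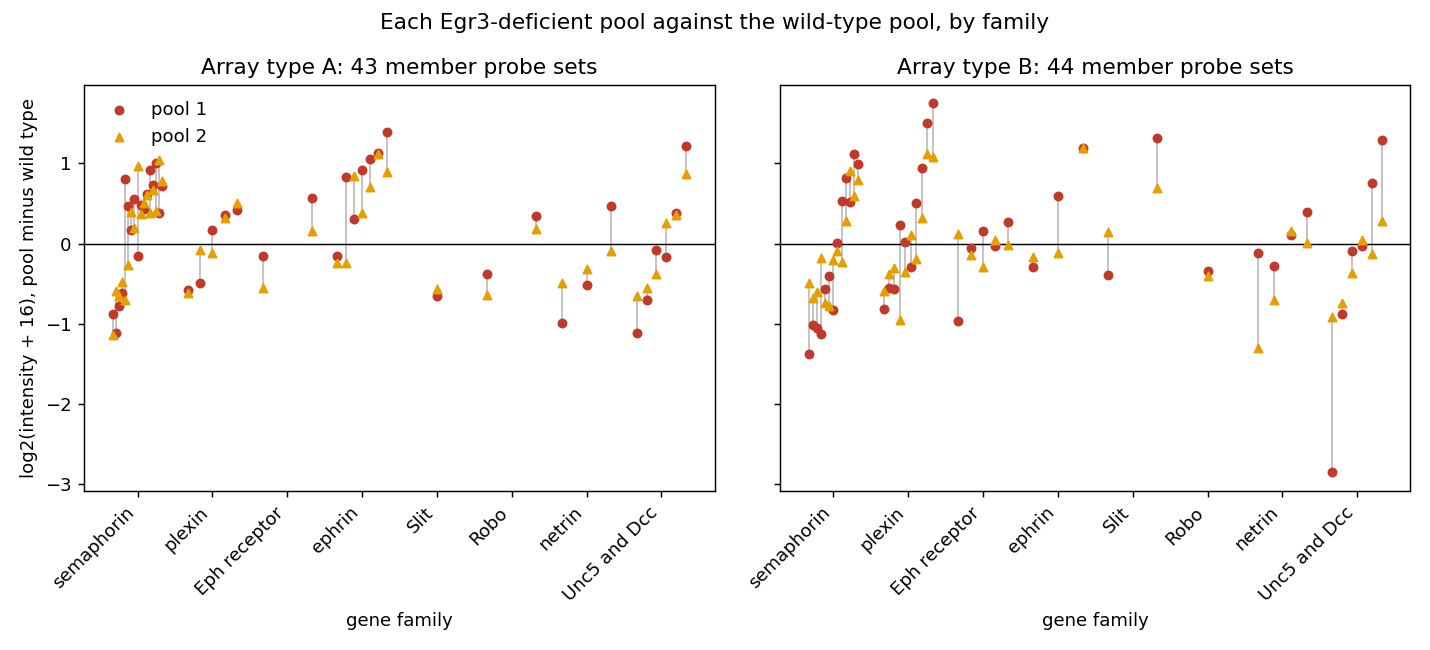
Log2 ratio of pool 1 (circles) and pool 2 (triangles) to the wild-type pool for each kept member probe set, grouped by family on the x axis, on array type A (left, 43 probe sets) and array type B (right, 44 probe sets), with a line joining the pools of a probe set. Ephrins on A lie mostly above 0, semaphorins, plexins and the Unc5 and Dcc group hold members on both sides, and the lowest point is a Dcc probe set on B in pool 1.

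Ephrins had the largest share of kept members above wild type in both pools on A. Of 7 kept ephrin probe sets there, 5 had both pools above it and 1 had both below, with a median log2 difference of 0.65. Efnb3, the B-class ephrin that stops corticospinal axons and spinal interneuron axons from recrossing the midline, read 437 and 427 against 197. The pools were close to each other and both above wild type, and the log2 difference was 1.12 (SE 0.29, limma adjusted p = 0.161). It was the member on A that was at least 2-fold higher in both pools, a class holding 1.2% of all kept probe sets there, and no member reached it with a pseudocount of 64. Efnb1, another transmembrane ephrin, read 154 and 109 against 55.1 on a first probe set and 135 and 108 against 63.5 on another. Both sets had the pools above wild type, with differences of 1.14 (SE 0.36, adjusted p = 0.174) and 0.88 (SE 0.34, adjusted p = 0.214). A further Efnb1 probe set, below the filter, read 35.7 and 32.5 against 39.6, so the probe sets of this gene did not give the same picture.

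A-class ephrins, which are held to the membrane by a lipid anchor, were less even. Efna2 read 324 and 325 against 141 on B, a log2 difference of 1.19 (SE 0.45, adjusted p = 0.179) with the pools nearly equal. Its probe set on A read 33.1 and 36.2 against 46.9, on the other side of wild type, at an intensity near the filter. Efna5, a repellent ephrin of many axon maps, read 403 and 429 against 463 on B (-0.23, SE 0.43, adjusted p = 0.888), a difference inside its error whose sign turned under median centring. Efna3 had a difference of 0.65 on A with both pools above wild type, and on B its pools lay on opposite sides (0.59 and -0.12). Efnb2, an ephrin of arteries and neurons, differed by 0.57 on 1 kept probe set with both pools above, and had its pools on opposite sides on another (0.82 and -0.25).

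Eph receptors showed small differences on the probe sets that passed the filter. On A 17 of 19 Eph probe sets were below the filter, and on B 4 of 9. Ephb6, a family member without kinase activity, read 107 and 82.0 against 75.1 on A (0.36, SE 0.35, adjusted p = 0.561). Ephb1, a receptor for B-class ephrins, read 1668 and 1149 against 1069 on B (0.13, SE 0.37, adjusted p = 0.935), with pool 2 near wild type, and at -0.21 under centring on the shared probe sets. Epha4, the receptor through which ephrin-B3 acts on spinal locomotor circuits, was added after its values were seen and differed by -0.36 on A (52.7 and 42.2 against 71.1) and by 0.0061 on B (135 and 150 against 154). Its probe sets below the filter were not tested. On B 1 of them, just short of the filter, read 36.8 and 36.1 against 104 (-0.91 and -1.09), and another read 3.46 and 1.82 against 2.40. On A it read 15.6 and 30.2 against 37.4. The probe sets of Epha4 on B thus did not give the same picture. No kept Eph probe set on B was above wild type in both pools and 1 of 5 was below it.

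Semaphorins split by member. Both pools were above wild type for 10 of 17 kept semaphorin probe sets on A and below it for 4, and on B for 4 and 7 of 13. The medians were 0.40 on A and -0.52 on B, and 2 of 17 on A and 3 of 13 on B were lower at an unadjusted p under 0.05 (beside 12.7% and 6.83% of all kept probe sets), against 0 and 1 higher (beside 7.93% and 7.4%).

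Class 4 semaphorins, membrane proteins with roles in glia and immune cells, were mostly above wild type. Sema4f, expressed in oligodendrocyte precursors and Schwann cells among others, read 77.6 and 83.5 against 52.6 on A (0.61, SE 0.33, adjusted p = 0.313) and 995 and 792 against 428 on B (0.89, SE 0.41, adjusted p = 0.298). The pools lay above wild type on both array types. Sema4d, made by oligodendrocytes and a ligand of plexin-B1, read 208 and 205 against 129 on 1 probe set (0.70, SE 0.31, adjusted p = 0.258). Its other kept probe set read 325 and 105 against 185, with the pools on opposite sides of wild type, and a further probe set below the filter read 29.1 and 25.6 against 8.16. Sema4a had differences of 0.71 and 0.65, Sema4g of 0.28 and Sema4c, on B, of 0.55, each with both pools above wild type. Sema4b had a mean of 0.40 with the pools on opposite sides (-0.16 and 0.96). Oligodendrocyte precursor markers were above wild type in both pools for 3 of 4 genes on A, with a summed intensity of 1342 and 991 against 778, most of it from Olig2 and Sox10, which mark the whole lineage. The exception was Pdgfra, the defining precursor marker, at 96.5 and 174 against 282 on A (-0.98) and, below the filter, 14.0 and 7.44 against 89.3 on B. The part of these markers in the class 4 values was not tested.

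Class 3 semaphorins, the secreted repellents, lay on both sides. Sema3b read 176 and 193 against 136 on its probe set named by rule (0.47, SE 0.32, adjusted p = 0.405), and its other probe sets read 30.8 and 66.5 against 24.4 (0.72) and 72.3 and 72.7 against 55.4 (0.42). Sema3g, known from endothelium, read 251 and 173 against 119 on B (0.86, SE 0.46, adjusted p = 0.409). Sema3a, a motor axon repellent that motor neurons themselves make, read 40.5 and 74.3 against 123 on A (-0.85, SE 0.37, adjusted p = 0.241), with pool 1 the lowest. Sema3c read 168 and 339 against 460 on B (-0.94, SE 0.46, adjusted p = 0.337), again with pool 1 lowest. Sema3e, a ligand of plexin-D1 that sorts proprioceptive and motor connections, read 126 and 115 against 211 (-0.65, SE 0.47, adjusted p = 0.584), and here the pools were close together. Below the filter on A, Sema3c read 11.2 and 25.2 against 56.7. Sema3e read 7.59 and 23.2 against 48.0, 5.17 and 0.618 against 5.43, and 1.5 and 4.54 against 7.41 on its probe sets there. Sema3a read 0.992 and 1.82 against 13.7 on a dim probe set and 19.1 and 2.22 against 21.6 on another, both near the bottom of the scale.

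Classes 5 and 6, which are membrane-bound, also held members on both sides. Sema5a, with both attractive and repulsive actions, read 56.7 and 51.4 against 134 on A (-1.01, SE 0.34, adjusted p = 0.183) and 883 and 1010 against 1417 on B (-0.85, SE 0.38, adjusted p = 0.288). Another Sema5a probe set on B read 92.9 and 53.2 against 72.7, with the pools on either side of wild type, and its mean turned below wild type under 2 other scalings. A dim Sema5a probe set on A, below the filter, read 28.4 and 23.4 against 34.2. Sema6d, a ligand of plexin-A1, read 57.8 and 73.0 against 127 on A (-0.72, SE 0.33, adjusted p = 0.262) and 2488 and 2750 against 3384 on B (-0.83, SE 0.32, adjusted p = 0.193). That last difference depended on the scaling and ran from -0.95 to -0.20 over the settings that used both pools, with adjusted p from 0.106 to 0.957. Its other probe sets on B read 104 and 82.3 against 161 (-0.59) and 67.4 and 123 against 153 (-0.52), so all 4 kept Sema6d probe sets were below wild type. Sema6c read 60.9 and 72.3 against 36.6 on A (0.75, SE 0.33, adjusted p = 0.246), and below the filter 11.6 and 25.2 against 7.37 and 5.06 and 5.08 against 11.9. Sema6a disagreed with itself: it read 385 and 497 against 261 on B (0.72, SE 0.44, adjusted p = 0.492) but 38 and 50.8 against 78.7 on A (-0.54, SE 0.33, adjusted p = 0.363), where a probe set below the filter read 5.85 and 4.25 against 36.6. Sema7a, a lipid-anchored semaphorin, read 439 and 254 against 311 on A, with the pools on either side of wild type.

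Plexins, the semaphorin receptors, had the member nearest to the threshold. Plxnb1, the receptor of Sema4d, read 1217 and 679 against 306 on B. Both pools were above wild type, pool 1 by more, and the log2 difference was 1.41 (SE 0.42, limma adjusted p = 0.0681). It passed with a pseudocount of 64 (adjusted p = 0.0490), with the filter at the 60th percentile (0.0399) and with robust eBayes (0.0337), and over all settings its adjusted p ran from 0.0337 to 0.455. In those 3 settings the test took the spread wholly from the prior across probe sets. The other Plxnb1 probe set read 943 and 552 against 418, a smaller difference of 0.64 (SE 0.42, adjusted p = 0.543). Plxna1, a partner of neuropilin-1 in class 3 signalling, read 591 and 428 against 196 on B (1.31, SE 0.44, adjusted p = 0.112), and 13.2 and 29.1 against 31.3 on A, below the filter. Plxnb1, Plxna1 and Efna2 were the 3 members on B at least 2-fold higher in both pools, a class holding 4.27% of all kept probe sets that held 0 members with a pseudocount of 64 or with centring on the shared probe sets. On the log2(intensity + 16) scale no kept member was at least 2-fold lower in both pools on either array type, where 4.35% on A and 1.8% on B of all kept probe sets were. On the deposited scale Sema5a on A and a Dcc probe set on B were. A pseudocount of 1 put 1 member of each array type in that lower class, no quantile normalization 1 on A, and centring on the shared probe sets 1 on A and 6 on B.

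Of the other A-class plexins, Plxna2 and Plxna4 had mean differences below wild type and Plxna3 one above it, by 0.34 on A. Plxna2, a receptor for class 6 semaphorins, read 48.4 and 54.1 against 94.0 on A (-0.60, SE 0.33, adjusted p = 0.319) and 641 and 729 against 969 on B (-0.70, SE 0.40, adjusted p = 0.448). Its other probe sets on B read 212 and 268 against 330.4 (-0.43) and 50.3 and 79.1 against 80.9 (-0.095). The pools of the last of these lay on opposite sides after normalization (-0.29 and 0.10). Plxna4, which pairs with Sema3a and Sema6a, differed by -0.47 and -0.17 on B. The probe set at -0.17 had its pools on opposite sides after normalization (0.015 and -0.36). Plxnb3, an oligodendrocyte-lineage plexin, read 179 and 148 against 169 on A (0.027, adjusted p = 0.968) and 2918 and 1507 against 1483 on B (0.16, adjusted p = 0.910), with no common direction of the pools after normalization. Its sign turned on A without quantile normalization and on both array types under centring on the shared probe sets.

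**Figure D2:**
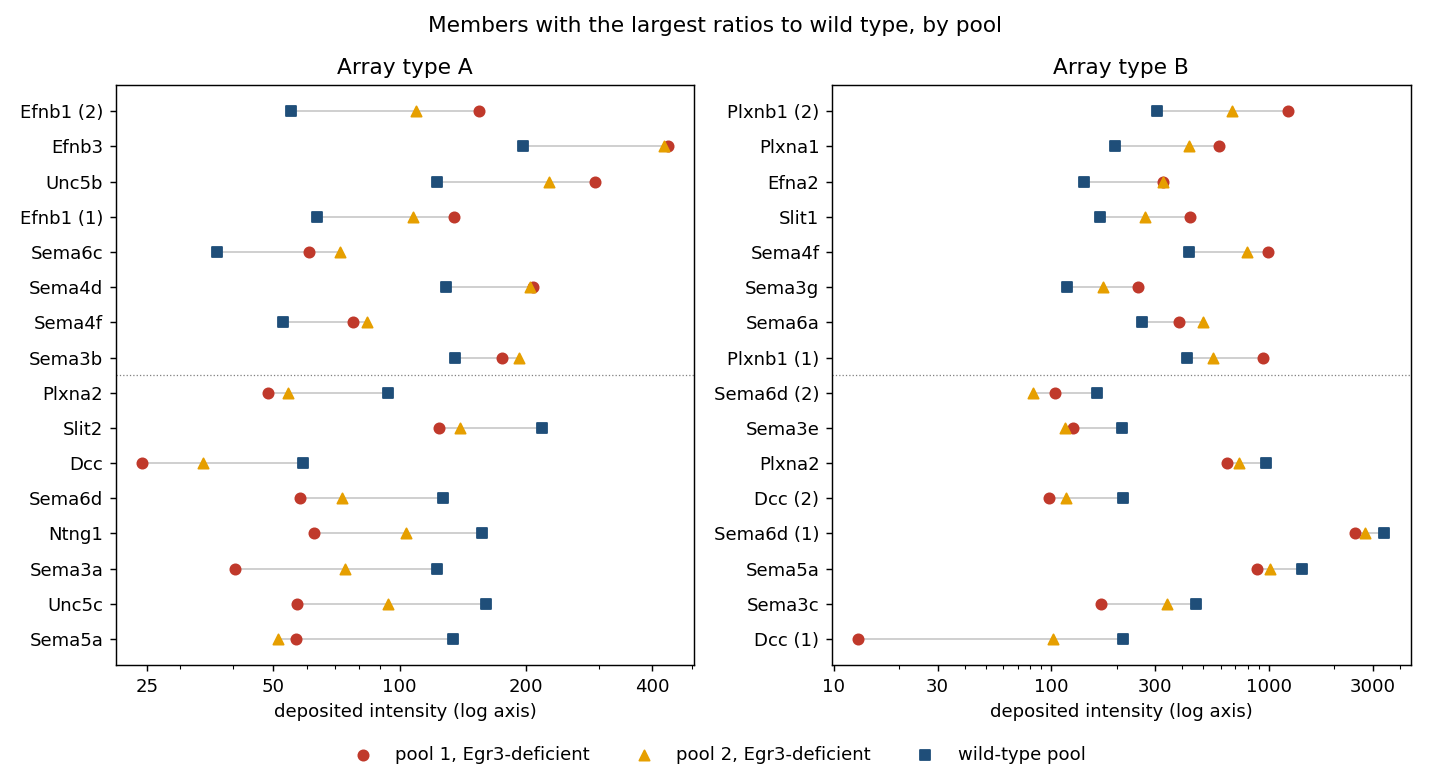
Deposited intensity (log axis) in pool 1, pool 2 and the wild-type pool of the 8 higher and 8 lower kept member probe sets on array type A (left) and B (right), ranked by the smaller of the ratios of pools 1 and 2 and ordered by log2 difference, with numbers in brackets for several probe sets of a gene. The selection puts the wild-type pool at one end of each line; the pools nearly coincide for Efnb3 and Efna2 (324 and 325) and lie far apart for the lower Dcc probe set on B (13.0 and 102).

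Netrin receptors differed in direction from one another. Dcc, the attractive netrin receptor of commissural axons, was below wild type in both pools on every one of its 3 probe sets. On A it read 24.3 and 33.9 against 58.8 (-0.63, SE 0.33, adjusted p = 0.307). Both pools there lay under the filter intensity near 36.7, so this probe set was kept through wild type alone. Its side on A therefore cannot add to the agreement of the probe sets. On B it read 97.5 and 117 against 214 (-0.81, SE 0.48, adjusted p = 0.465) and, on the probe set with the lowest difference of all members, 13.0 and 102 against 214. That difference was -1.88 (SE 0.68, adjusted p = 0.155), of -2.85 in pool 1 and -0.91 in pool 2, so pool 1 supplied most of it. Unc5c, a repulsive netrin receptor, read 56.9 and 93.8 against 161 on A (-0.88, SE 0.36, adjusted p = 0.224). Its other probe set, below the filter, read 21.4 and 32 against 65.9.

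Unc5b, a netrin receptor also known from endothelium, was on the opposite side. It read 293 and 228 against 123 on A (1.04, SE 0.33, adjusted p = 0.174) and 851 and 381 against 309 on B (0.79, SE 0.45, adjusted p = 0.440), where pool 2 stood much nearer to wild type than pool 1. Endothelial markers were above wild type in both pools for 4 of 5 genes on A, with a summed intensity of 498 and 548 against 516, so their sum lay on both sides of wild type. Robo4, an endothelial Robo, differed by 0.27. Unc5a read 600 and 305 against 331 on B (0.31, or -0.22 under centring on the shared probe sets) and Unc5d differed by 0.012, neither with a common direction. Unc50 differed by 0.37, 0.044 and -0.23 on its 3 probe sets.

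No netrin or netrin-G passed the threshold. Ntng1, a lipid-anchored netrin-G that binds a synaptic adhesion protein and not Dcc, read 62.4 and 104 against 157 on A (-0.74, SE 0.36, adjusted p = 0.281) and 37.8 and 53.0 against 71.9 on another probe set (-0.42). On B it read 363 and 272 against 272 (0.20, SE 0.45, adjusted p = 0.912, and -0.38 under centring on the shared probe sets) and 68.5 and 52.6 against 105 (-0.49), so its probe sets did not agree in sign. Ntn1, the floor plate netrin, which was picked with its values known, had readings of 106 and 72.5 against 81.0 on A, with the pools on opposite sides. Ntn4 differed by 0.13 and Ntn5 by -0.71 on B. The Ntn5 difference was -0.12 in pool 1 and -1.30 in pool 2, so pool 2 supplied most of it.

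Slits and Robos were measured by few probe sets. Slit2, a midline repellent that motor neurons also make, read 124 and 140 against 219 on A (-0.61, SE 0.32, adjusted p = 0.307), with the pools close together, and 79.5 and 132 against 128 on B, where pool 2 was not below wild type. Another Slit2 probe set on A, below the filter, read 3.23 and 24.9 against 50.7. Slit1, a neuronal Slit, read 432 and 269 against 167 on B (1.0, SE 0.45, adjusted p = 0.289), and on A, near the bottom of the scale, 6.17 and 9.09 against 8.25. Robo1, the main Slit receptor of commissural axons with Robo2, read 77.9 and 69.3 against 120 on A (-0.51, SE 0.34, adjusted p = 0.395) and 230 and 227 against 303 on B (-0.38, SE 0.45, adjusted p = 0.787). Robo2 was below the filter.

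Members below the filter numbered 55 on A and 12 on B, and their differences were not tested. Among them, chosen after their values were seen, Sema5b read 64 and 59.6 against 13.5 on B, while Epha5 read 18.3 and 23.9 against 109 on B and Sema3d 5.33 and 10.2 against 81.2. Kept probe sets of these genes gave smaller mean differences: Sema5b 0.37 on A, Epha5 -0.42 and Sema3d -0.66 on B. Epha5 had its pools on opposite sides (-0.96 and 0.13). Pool 1 supplied most of the Sema3d difference (-1.13 against -0.18 in pool 2). Sema5b was above wild type in both pools (0.55 and 0.19). With low values included, both pools exceeded wild type for 35 and lay below it for 40 of 98 members on A, and for 17 and 22 of 56 on B. Over all probe sets those counts were 9662 and 8023 of 22626 on A, and 8504 and 7877 of 22511 on B. On both array types more members lay below wild type than above it, while more of all probe sets lay above. The gap was small: with no filter the medians were -0.061 for members and 0.054 for all probe sets on A. On B they were -0.057 and 0.017. The signs of dim readings carry little, some genes supply several of the probe sets, and the contrast was not tested.

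Of 22 genes with more than 1 kept probe set, 6 had probe sets on both sides of 0: Efna2, Epha4, Ntng1, Sema5a, Sema6a and Unc50. The other 16 had all their probe sets on 1 side, among them Dcc (from -1.88 to -0.63), Sema6d (-0.83 to -0.52), Plxna2 (-0.70 to -0.095), Efnb1 (0.88 to 1.14) and Plxnb1 (0.64 to 1.41). For Dcc the probe set on A, at -0.63, was kept through wild type alone and does not count towards agreement. All of these probe sets read the same 3 RNA pools and so are not replicates of the comparison.

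**Figure D3:**
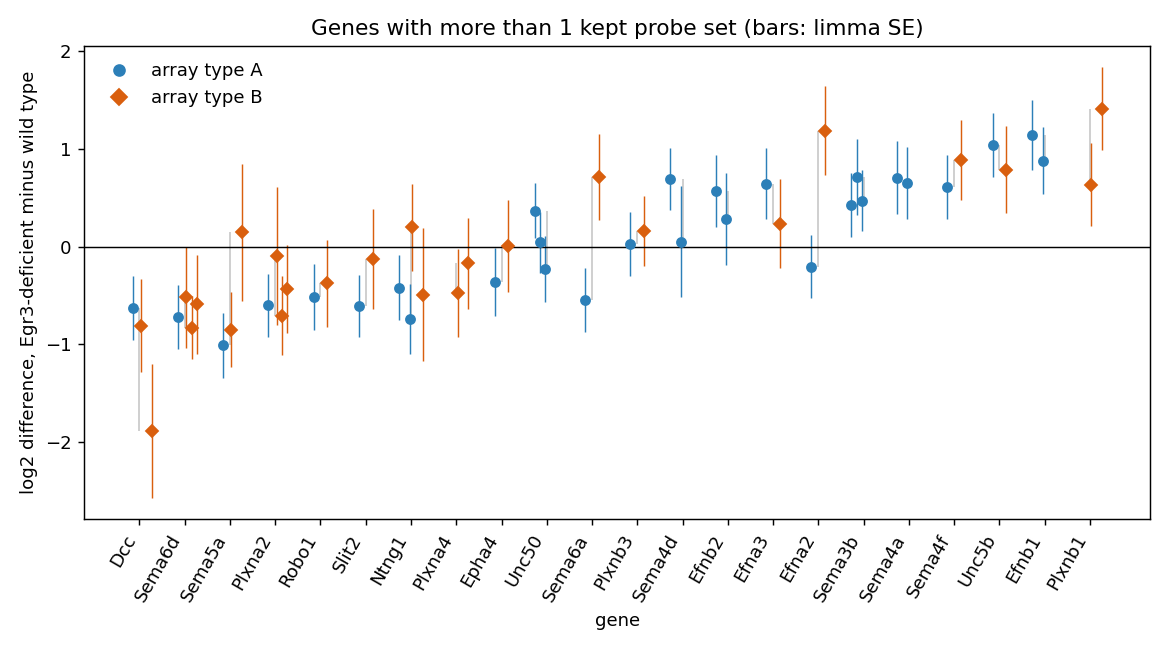
Log2 difference (Egr3-deficient pools minus wild type) of each kept probe set for the 22 member genes with more than 1, circles for array type A and diamonds for B, with bars for the limma SE, ordered by the gene's mean. Dcc and Sema6d lie below 0 on all their probe sets, Efnb1 and Plxnb1 above, and Efna2 and Sema6a have 1 probe set on each side. The Dcc probe set on A passed the filter through its wild-type reading alone.

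The direction of a member went with the length of its gene. Genomic span, from the gene's start to its end in RefSeq's mouse table (assembly GRCm38.p6), was found for 71 of 71 member genes and ran from 4.44 to 1555 kb. The relation was looked at after the values were seen. Across kept member probe sets the Pearson correlation of log10 span with the log2 difference was -0.74 on A (n = 43, Spearman -0.63) and -0.55 on B (n = 44, Spearman -0.59), given as a description with no test. With 1 probe set per gene it was -0.78 (n = 34) and -0.48 (n = 35). Over all kept probe sets with 1 gene and a span it was -0.35 on A (n = 12530) and -0.25 on B (n = 9557), so a weaker relation ran through the whole arrays, and whether the members differ from it was not tested. All points share the same 3 RNA pools, and probe sets of a gene share its span.

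Members of genes under 100 kb, a limit set after the values were seen, lay mostly above wild type and members of longer genes mostly below. Sides in these counts go by the sign of the mean log2 difference, not by both pools. On A 24 of 26 short members were above it (92.3%, beside 61.1% of all short probe sets) and 13 of 17 long members were below (76.5%, beside 66.0%). The medians were 0.44 and -0.54, and over all probe sets 0.16 and -0.26. On B 11 of 16 short members were above (68.8% beside 57.6%) and 20 of 28 long members were below (71.4% beside 59.0%). The medians there were 0.43 and -0.40, and over all probe sets 0.12 and -0.15. Pool 1 supplied most of the short members' median on B, at 0.78 against 0.093 in pool 2. All short probe sets also had 0.093 in pool 2. With 1 probe set per gene the short members' median in pool 2 was -0.093. The long members' median on B was -0.37 in pool 1 and -0.26 in pool 2. Genes under 100 kb with a probe set well above wild type included Efnb3 (7.1 kb), Efna2 (10.5 kb), Efnb1 (13.0 kb), Sema4f (27.9 kb), Plxnb1 (26.1 kb) and Plxna1 (46.3 kb, near the members' median of 44.0 kb). Slit2 (326 kb), Unc5c (369 kb), Sema5a (452 kb), Sema3a (479 kb), Sema6d (578 kb), Robo1 (1020 kb) and Dcc (1098 kb) stood at the long end. Short members below wild type numbered 2 of 26 on A, among them Efna2 (-0.20), and 5 of 16 on B, the lowest Ntn5 (10.5 kb, -0.71). Long members above wild type numbered 4 of 17 on A and 8 of 28 on B. The furthest above were Slit1 (149 kb, 1.0) and Sema6a (126 kb, 0.72) on B and a Sema4d probe set on A (108 kb, 0.70), each in both pools.

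Both pools carried the relation on A, with correlations of -0.68 for pool 1 and -0.69 for pool 2 against the shared wild-type pool. On B they were -0.62 and -0.34. Span also went with the difference between the pools labelled alike: the correlation with pool 1 minus pool 2 was -0.57 on B and -0.12 on A, so on B part of the relation did not follow the genotype labels. On A span also correlated at -0.28 with the mean log2 level of a member probe set, and on B at -0.09. The 3' to 5' ratios above were lowest in wild type on A for 18S rRNA, by the widest margin, for Gapdh and pyruvate carboxylase, and for actin by almost nothing. On B wild type was lowest for 18S rRNA, Gapdh (0.923 and 0.805 against 0.755), pyruvate carboxylase (5.82 and 4.02 against 3.85) and transferrin receptor (2.57 and 2.54 against 2.11). For actin it was highest there (1.395 and 1.47 against 1.52). The part of these ratios in the relation was not tested.

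**Figure D4:**
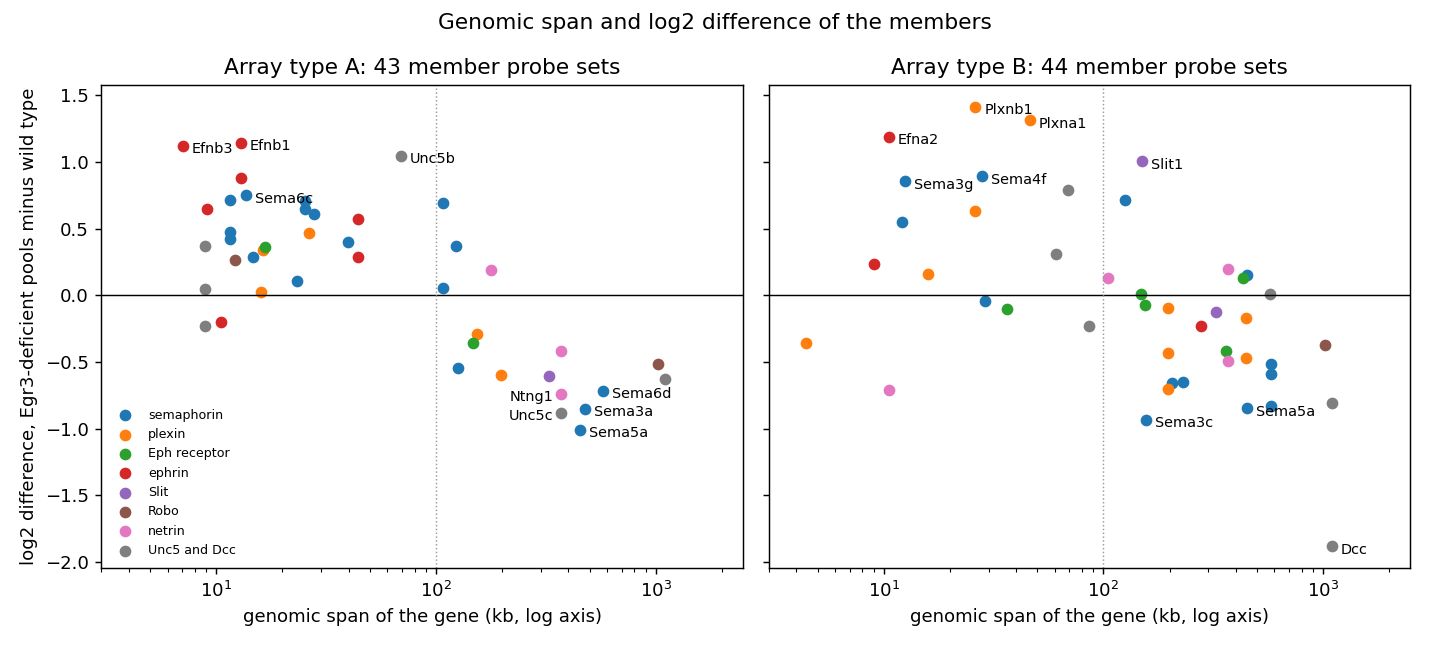
Log2 difference (Egr3-deficient pools minus wild type) against genomic span of the gene in kb (log axis) for the kept member probe sets of array type A (left, 43) and B (right, 44), coloured by family, with a dotted line at 100 kb and the outlying genes named. Points run from the upper left (Efnb3, Efnb1, Plxnb1) to the lower right (Sema5a, Dcc), with correlations of -0.74 and -0.55.

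Because Egr3 encodes a DNA-binding factor, the promoter windows of the members were searched for the EGR recognition sequence. RefSeq windows of 300 bases (250 before and 50 after the gene start, build GRCm38.p6) were matched for 60 of the 71 genes, with 76 windows. Among all genes with a single window, its start fitted the gene start for 17086 of 22861. Distances given below therefore count from the start that the window assumes. The EGR consensus GCGTGGGCG, on either strand, was in 2 member windows (2.63%, beside 0.612% of 32851 windows of all genes), those of Efna3 and Plxna2. The variant GCGGGGGCG was in 7 (9.21% beside 2.91%), those of Epha1, Epha8, Plxnb2, Sema4g, Sema5a, Sema6b and Slit2. The members' windows were also richer in G and C, with a median of 64% against 52.7%, and a plain GC box (GGGGCGGGG) was in 26.3% of them against 11.4%. The GC box overlapped the variant in Sema5a and not in Slit2. A match is a description of letters and not a binding site.

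The 250 bases before the gene start are shown for 4 of the members that hold a match, with the matched bases in capitals. These were picked with their values known, and the other holders are not shown. Plxna2 (chr1:194619579-194619828, plus strand) holds the consensus 78 bases before the start and Efna3 (chr3:89322940-89323189, minus strand) holds its reverse complement 101 bases before it. Slit2 (chr5:47982905-47983154, plus strand) and Sema5a (chr15:32244563-32244812, plus strand) hold the variant 56 and 55 bases before it.
Plxna2: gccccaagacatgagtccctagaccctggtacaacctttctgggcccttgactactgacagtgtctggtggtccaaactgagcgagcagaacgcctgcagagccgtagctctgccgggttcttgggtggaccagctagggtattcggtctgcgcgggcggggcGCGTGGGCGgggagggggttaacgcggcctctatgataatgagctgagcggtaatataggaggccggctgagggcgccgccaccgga
Efna3: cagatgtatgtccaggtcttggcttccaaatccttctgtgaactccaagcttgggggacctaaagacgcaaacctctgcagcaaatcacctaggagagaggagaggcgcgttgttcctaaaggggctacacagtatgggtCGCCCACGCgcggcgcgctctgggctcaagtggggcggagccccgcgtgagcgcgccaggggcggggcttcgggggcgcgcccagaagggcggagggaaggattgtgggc
Slit2: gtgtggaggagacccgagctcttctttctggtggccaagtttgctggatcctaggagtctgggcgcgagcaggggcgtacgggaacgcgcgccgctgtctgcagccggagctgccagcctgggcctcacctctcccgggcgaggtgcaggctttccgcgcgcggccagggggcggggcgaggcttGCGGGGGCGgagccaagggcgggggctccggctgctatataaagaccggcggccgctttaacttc
Sema5a: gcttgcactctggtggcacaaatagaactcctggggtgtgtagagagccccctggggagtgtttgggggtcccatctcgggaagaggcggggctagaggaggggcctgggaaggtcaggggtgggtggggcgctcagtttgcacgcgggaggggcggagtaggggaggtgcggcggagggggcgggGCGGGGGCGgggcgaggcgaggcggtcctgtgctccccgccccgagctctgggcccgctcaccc
Of these, Plxna2, Slit2 and Sema5a had kept probe sets below wild type on A and Efna3 one above it, none past the threshold. Among the holders of the variant not shown, Plxnb2 (0.47) and Sema4g (0.28) had kept probe sets on A above wild type in both pools. Those of Epha1, Epha8 and Sema6b were below the filter. The holders of a match thus lay on both sides of wild type.

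The partners of these families, from a list of 77 genes of coreceptors, other ligands and intracellular effectors, gave no call either. Of 51 kept genes on A, 0 passed, with 1 higher and 6 lower at an unadjusted p under 0.05 (beside 7.93% and 12.7% of all kept probe sets), and of 41 on B 0 passed, with 2 higher and 3 lower (beside 7.4% and 6.83%). Their medians were -0.11 and 0.017. The following were named after their values were seen. The neuropilins, coreceptors of class 3 semaphorins, were Nrp1 (126 and 202 against 223 on A, 147 and 260 against 254 on B) and Nrp2 (145 and 159 against 122 on A, 391 and 400 against 313 on B). Nrp2 was thus above wild type in both pools on both array types and Nrp1 below it clearly in pool 1 alone, with adjusted p from 0.515 to 0.853. Chn1, the Rac regulator that acts below Epha4 in locomotor circuits, read 500 and 475 against 578 on A (-0.26, adjusted p = 0.590) and 200 and 242 against 383 on B (-0.78, adjusted p = 0.456). Cxcl12, a chemokine that guides motor axons, was above wild type on A (205 and 246 against 136) and below it on B (123 and 150 against 280).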

How the data were processed

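RNA of 3 pools was measured once on each of 2 array types. Values deposited by the authors were linear intensity readings, 1 for each probe set, scaled to a trimmed mean near 150 on each array, as found from the values; the sources used here do not name the summarising program. Each array type was analysed alone. Its 64 control probe sets were left out. Members followed the platform gene symbol; the families, lists and naming rule were chosen with earlier results of these data known. Values were log2(intensity + 16), quantile normalized and kept from the 40th percentile of the mean. Differences were tested with limma 3.58.1 in R 4.3.3 (eBayes with an intensity trend, threshold 0.05, 1 residual degree of freedom). With 1 wild-type pool, its spread was taken to equal that of the Egr3-deficient pools. Prior degrees of freedom were 6.54 (A) and 52.3 (B), so SEs on B hardly measure a probe set's own spread. P-values cover these pools only. On log2 scales with a pseudocount, changes of dim genes are understated. The script was checked on simulated data. Values were given by pool for the 8 higher and 8 lower kept members per array type with the largest smaller-of-2 ratio, for other probe sets of those genes, and for the member with the highest wild-type reading of each family. Other genes given by pool were chosen after their values were seen. Alternatives were other normalizations, pseudocounts, filters, variance models and single pools.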

Additional observations from a re-analysis of the deposited data

How the results depend on the processing

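No member passed the test on A under any setting run. On B 1 member, Plxnb1, passed with a pseudocount of 64, the 60th percentile filter and robust eBayes, and 0 elsewhere, adjustment over both array types included. With both pools in, named probe sets kept their direction except that Plxnb3 was -0.046 on A without quantile normalization and -0.045 under centring on the shared probe sets, Efna5 was 0.021 on B under median centring and Sema5a -0.031 on its dimmer probe set on B without quantile normalization. Under centring on the shared probe sets, added after seeing the data, B gave -0.22 for Unc5a, -0.38 and -0.081 for Ntng1 and Plxnb3, -0.61 for that Sema5a probe set and -0.21 for Ephb1. The members' median on A was -0.061 with no filter and 0.15 with 1 probe set per gene; on B it was -0.0057 under median centring and -0.75 on the shared probe sets. Leaving out a pool gave values with no test. It turned the sign of 10 named probe sets, 9 without pool 1 (Sema7a, Sema4d and Plxnb3 on A, and Unc5a, Plxnb3, Sema5a, Ephb1, Plxna2 and Slit2 on B) and Unc50 without pool 2, and gave members' medians from 0.19 to 0.36 on A and from -0.16 to -0.030 on B. Counts over all kept probe sets moved more. On A 9 higher became 227 under median centring and 0 on the shared probe sets or with no filter, and 0 lower became 597 under median centring and 1 without quantile normalization, at a pseudocount of 64 or with robust eBayes. On B 138 higher became 2 without quantile normalization and 0 on the shared probe sets, with no filter or without trend. There 82 lower became 22 under median centring, 47 and 181 at pseudocounts of 1 and 64, 195 with the 60th percentile filter, 170 with robust eBayes, and 0 without quantile normalization, on the shared probe sets, with no filter or without trend. The cause was not tested. The correlation with span ran from -0.78 to -0.58 on A and from -0.68 to -0.34 on B over its settings. No paired analysis was possible because 1 wild-type pool faced 2 others. Dim readings limit the Eph receptors, of which 17 of 19 probe sets on A were below the filter.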
